A study of Mus musculus with 27 samples.

Results

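Dppa2, Dppa4, Dppa5a and Utf1 are 4 genes that are used as markers of the undifferentiated state of mouse pluripotent cells, and they were taken by symbol from the 20156 genes of the expression tables. The study followed the reprogramming of somatic cells in 27 libraries of 3 cell types. Mouse embryonic fibroblasts (MEFs) came from day 13.5 embryos hemizygous for an Oct4-GFP transgenic allele and a Rosa26 allele, of CBA/CaJ and C57BL/6J background crossed to 129Sv/Jae females. Pre-iPSCs, a stable intermediate stage, and induced pluripotent stem cells (iPSCs) were made from such MEFs with retroviral Oct4, Sox2, Klf4 and c-Myc, and both were expanded on feeder layers of mitomycin C-treated MEFs in serum medium with leukemia inhibitory factor (LIF). The study worked with 2 pre-iPSC clones and the iPSCs derived from them, and the clone behind a library was not given in the sources used here. Each cell type had 2 libraries (replicates 1 and 2) for RNA-seq, for histone H3, for H3K4me3 and for H3K27me3, and 1 for H3K9me3.

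Dppa2 and Dppa4 encode small nuclear proteins with a SAP domain, a DNA-binding fold. They form a heterodimer that binds chromatin in embryonic stem cells and that can switch on Dux, a transcription factor of the 2-cell embryo. Dppa5a encodes a KH-domain protein that binds RNA, and Utf1 encodes a chromatin-bound protein of undifferentiated cells whose gene is a classical joint target of Oct4 and Sox2. Of the histone marks, H3K4me3 is typical of active promoters, H3K27me3 is laid down by Polycomb proteins at silent developmental genes, and H3K9me3 is typical of heterochromatin.

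Dppa4 (NM_028610) lies at chr16:48283848-48294405 of mm9 on the forward strand and Dppa2 (NM_028615) at chr16:48310387-48319626 on the same strand, with 15981 bp between them and no other gene of the tables in the gap. Dppa5a (NM_025274) is a short gene at chr9:78214861-78216006 on the reverse strand, and Utf1 (NM_009482) a short gene at chr7:147129755-147131011 on the forward strand. The 250 bases upstream of the transcription start site (TSS) of Dppa2 and of Utf1 are shown because these promoters differ in CpG content, which goes with how H3K4me3 and H3K27me3 are distributed over promoters in general. They were read from mm9 on the strand of the gene, with every CpG in capitals, and occupy chr16:48310137-48310386 and chr7:147129505-147129754.
Dppa2: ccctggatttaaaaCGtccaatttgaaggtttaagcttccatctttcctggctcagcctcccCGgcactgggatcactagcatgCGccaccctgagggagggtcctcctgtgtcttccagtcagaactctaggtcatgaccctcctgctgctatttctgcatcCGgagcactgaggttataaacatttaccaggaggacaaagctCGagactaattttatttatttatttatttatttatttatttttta
Utf1: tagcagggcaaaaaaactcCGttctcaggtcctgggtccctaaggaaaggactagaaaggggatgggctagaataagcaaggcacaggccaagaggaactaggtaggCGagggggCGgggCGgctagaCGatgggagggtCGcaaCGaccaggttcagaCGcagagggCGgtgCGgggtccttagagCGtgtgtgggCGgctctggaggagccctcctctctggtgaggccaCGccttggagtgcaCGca
The stretches hold 5 CpGs at Dppa2 and 14 at Utf1. Within 500 bp of the TSS, the ratio of observed to expected CpGs was 0.346 at Dppa2, below the median of 0.601 over all genes. At Utf1 the ratio was 0.815, higher than at 79.3% of the genes.

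One further sequence is shown because Oct4 and Sox2 bind side by side at a composite element of the octamer and Sox type. The letters CATTGT, any base, ATGC, any 3 bases and a final T were searched in this order on both strands within 3000 bp of every TSS and were found at 51 of 20156 genes (0.253%), among them Utf1 but not Dppa2, Dppa4 or Dppa5a. Since Utf1 was known beforehand as a joint target of Oct4 and Sox2, its match is a description and not a test. The match at Utf1, in capitals, occupies chr7:147131580-147131594 on the reverse strand, 1832 bp downstream of the TSS and 569 bp past the annotated end of the gene.
Utf1 downstream element: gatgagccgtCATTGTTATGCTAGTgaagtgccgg

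The RNA-seq values are FPKM (fragments per kilobase of transcript, relative to all mapped fragments), which scale a level to transcript length and library size. All 4 genes were near or at 0 in MEFs and among the more abundant transcripts in iPSCs, and they differed in how much transcript the pre-iPSCs held. For the tests, differences were taken between values of log2(FPKM + 1) with limma over 12401 genes, and calls needed both an adjusted p under 0.05 and a 2-fold change. All 4 genes passed the filter on low values, an average of 0.5 FPKM or more per library, Dppa2 and Dppa4 only through their iPSC libraries, so that for these 2 genes the values below without any filter are the ones the filter did not bear on. No source used here ties libraries to separate cultures or clones beyond the study's word that they are biological replicates, so p-values measure the spread between these libraries. In whole cultures, more expressing cells and more transcript per cell cannot be told apart.

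Dppa4 was listed at 0 in both MEF libraries. It was at 0 and 0.0568 FPKM in pre-iPSCs and at 71.3 and 59.1 FPKM in iPSCs. The MEF and pre-iPSC libraries thus overlapped, and both iPSC libraries stood far above them, where Dppa4 exceeded 95.2% and 95.3% of all genes. The difference between iPSCs and pre-iPSCs was 6.00 ± 0.36 (log2(FPKM + 1) ± SE, limma adjusted p = 0.000487), while that between pre-iPSCs and MEFs was 0.04 ± 0.36 (adjusted p = 0.965).

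Dppa2, the neighbour of Dppa4, was also listed at 0 in both MEF libraries. In pre-iPSCs it was at 0.173 and 0.154 FPKM, and in iPSCs at 52.3 and 34.5 FPKM. Dppa2 was therefore detected at a very low level in both pre-iPSC libraries, and the iPSC libraries were 303-fold and 224-fold higher than the pre-iPSC library of the same table. Dppa2 rose by 5.23 ± 0.37 between pre-iPSCs and iPSCs (adjusted p = 0.000834), and the difference of 0.22 ± 0.37 between MEFs and pre-iPSCs did not pass the test (adjusted p = 0.748).

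Dppa5a reached the highest level of the 4 genes. It was at 0 and 0.321 FPKM in MEFs, at 1.70 and 5.01 FPKM in pre-iPSCs and at 725 and 842 FPKM in iPSCs. The 3 cell types did not overlap, and in iPSCs it exceeded 99.5% and 99.6% of all genes. Dppa5a rose in both steps, by 1.81 ± 0.38 from MEFs to pre-iPSCs (adjusted p = 0.0187) and by 7.60 ± 0.38 from pre-iPSCs to iPSCs (adjusted p = 0.000484). The call of the first step rested on 1 library, since without replicate 2 of the pre-iPSCs the difference was 1.39 with an adjusted p of 0.347.

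Utf1 was listed at 0 in both MEF libraries. It was at 23.2 FPKM in pre-iPSC replicate 1 and at 1.67 FPKM in replicate 2, and at 544 and 220 FPKM in iPSCs. Its pre-iPSC libraries were 13.9-fold apart, compared with 1.12-fold for Dppa2, which was near 0 in both, and 2.95-fold for Dppa5a. No ratio could be formed for Dppa4, at 0 in pre-iPSC replicate 1. Both pre-iPSC values of Utf1 lay between the MEF and the iPSC libraries. Utf1 rose by 3.01 ± 0.68 from MEFs to pre-iPSCs (adjusted p = 0.0242) and by 5.43 ± 0.68 from pre-iPSCs to iPSCs (adjusted p = 0.00458). Without pre-iPSC replicate 1, the library with the higher level, the first difference was 1.74 with an adjusted p of 0.172, and its call was lost in 5 of 11 alternatives in all, the others being no filter on low values (adjusted p = 0.0854), no table term (adjusted p = 0.0534) and leaving out either iPSC replicate (adjusted p of 0.0627 and 0.0817). The second was not called without iPSC replicate 1 (5.58, adjusted p = 0.0736) or replicate 2 (5.29, adjusted p = 0.109).

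**Figure D1:**
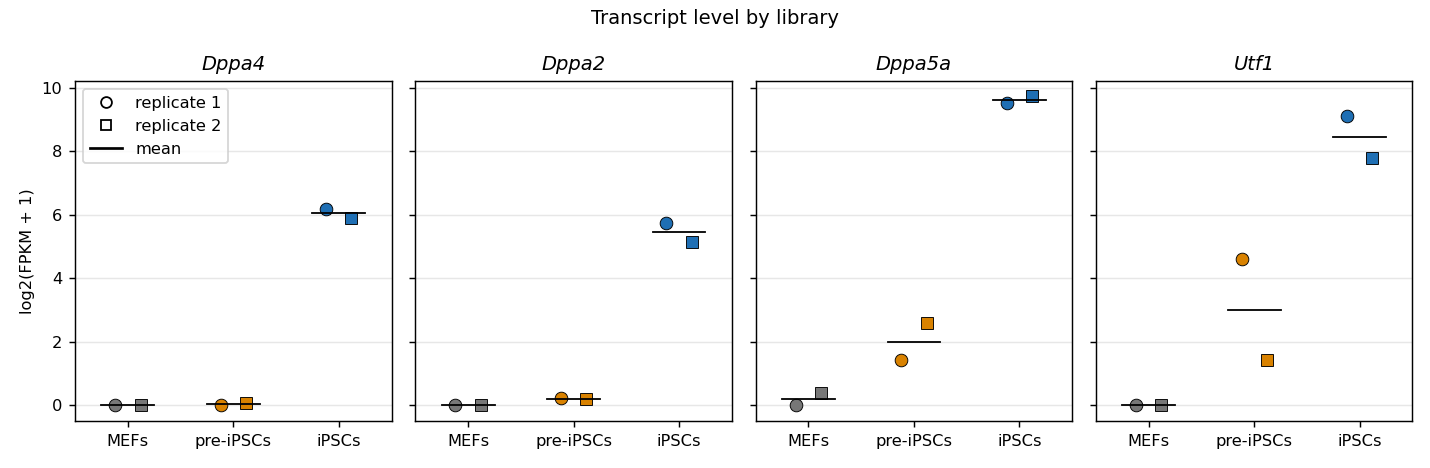
Transcript level of Dppa4, Dppa2, Dppa5a and Utf1 as log2(FPKM + 1) in each of 6 RNA-seq libraries, with circles for replicate 1, squares for replicate 2 and a bar for the mean of 2 libraries. Dppa4 and Dppa2 lie at or just above 0 in MEFs and pre-iPSCs, Dppa5a and Utf1 lie between the 2 end points in pre-iPSCs, and the 2 Utf1 values in pre-iPSCs are far apart.

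As a description of the 4 genes, 2 were called higher in pre-iPSCs than in MEFs, where 16.4% of the 12401 genes were called and 7.39% were higher. All 4 were called higher in iPSCs than in pre-iPSCs (8.62% of genes called, 3.91% higher) and in iPSCs than in MEFs (25.9% called, 10.3% higher), the last with differences from 5.44 ± 0.37 for Dppa2 to 9.41 ± 0.38 for Dppa5a. Dppa4 and Dppa2 passed the filter only through their iPSC libraries. Their calls beside shares of the filtered genes, here and below, are therefore a description. With no filter on low values, Dppa4 and Dppa2 were called in the second step as well (limma adjusted p = 0.0136 for each), as they were from MEFs to iPSCs (adjusted p = 0.00886 for each). The median difference over all tested genes was -0.04, -0.09 and -0.14 in these comparisons. Whether a gene moved more in the second step than in the first was tested as a difference of differences. This was 5.96 ± 0.62 for Dppa4 (adjusted p = 0.00267), 5.01 ± 0.63 for Dppa2 (adjusted p = 0.00541) and 5.79 ± 0.66 for Dppa5a (adjusted p = 0.00359), where 8.44% of the genes passed the threshold and 3.25% in this direction. With no filter the adjusted p was 0.0293 for Dppa4 and 0.0391 for Dppa2. For Utf1 it was 2.43 ± 1.18 (limma adjusted p = 0.277), so that a larger second step was not shown for this gene with all 6 libraries. That value turned on the pre-iPSC libraries, and was 4.95 without replicate 1 and -0.10 without replicate 2. Over 10 alternatives it ranged from -0.25 to 4.95. In 6 of them it kept its sign and was not called, and in the others it was reversed or called.

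**Figure D2:**
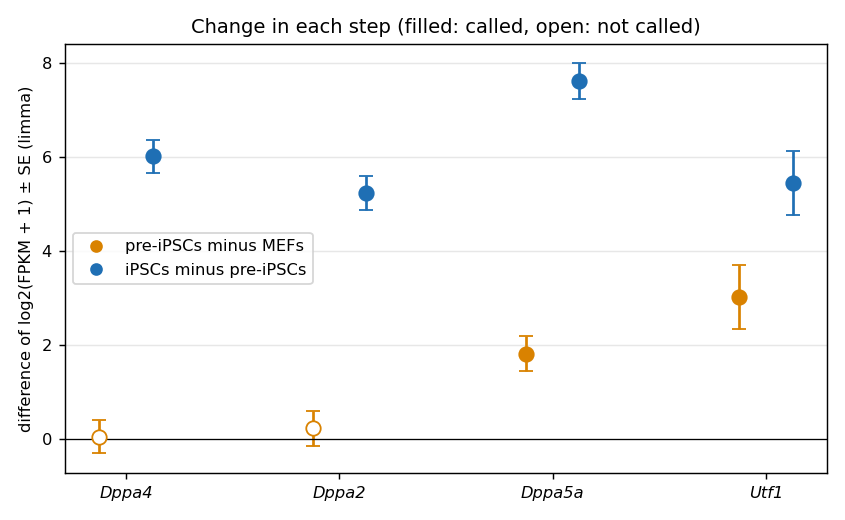
Difference of log2(FPKM + 1) with its standard error from limma for each gene, from MEFs to pre-iPSCs (orange) and from pre-iPSCs to iPSCs (blue), with filled symbols for called differences. The first step is near 0 for Dppa4 and Dppa2 and 1.81 and 3.01 for Dppa5a and Utf1, and the second step is between 5.23 and 7.60 for all 4 genes.

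A limit of these levels lies in the sequence of the genes, because only uniquely mapped reads were kept. Of all 32-base words in the exons, 33.6% were unique in mm9 for Dppa4, 33.7% for Dppa2 and 22.2% for Dppa5a, and 100% for Utf1. The length of 32 bases was set for this count and not taken from the reads. Longer reads would be unique at least as often, so these shares are not shares of reads kept. The share of reads that was lost or misplaced for Dppa4, Dppa2 and Dppa5a was not tested, and the order of levels between genes depends on it.

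The markers of the cell types bore on how the libraries may be read. The 7 fibroblast markers, Col1a1 and Col1a2 among them, summed to 4320 and 4232 FPKM in MEFs, 291 and 93.5 FPKM in pre-iPSCs, and 204 and 237 FPKM in iPSCs, so that fibroblast transcripts were present in the cultures on feeders. MEFs themselves held none of Dppa4, Dppa2 or Utf1 and at most 0.321 FPKM of Dppa5a. Of 6 pluripotency markers, Zfp42 and Esrrb were below 0.1 FPKM in both pre-iPSC libraries and Tdgf1 was at 228 and 333 FPKM. The 4 germ cell markers summed to at most 0.159 FPKM in MEFs and pre-iPSCs and to 31.3 and 37.2 FPKM in iPSCs, and of the trophoblast markers in the tables Cdx2 and Elf5 stayed below 0.1 FPKM everywhere while Eomes reached 1.54 FPKM. The fibroblast sum was 291 FPKM in the pre-iPSC library in which Utf1 was high and 93.5 FPKM in the one in which it was low, and the part of such differences in the Utf1 values was not tested.

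Genes with the most similar course over the 6 libraries were picked by the Pearson correlation of log2(FPKM + 1), as a description, since the cell types set most of the variation. For Dppa4 they were Triml2 (r = 1.000, at 22.9 and 19.9 FPKM in iPSCs and 0 elsewhere), Gm428 and 2410141K09Rik. For Dppa2 they were Nlrp4f, Amph and Tuba3a, the last at 39.0 and 26.3 FPKM in iPSCs. For Dppa5a they were Frmd5, Rhpn2 and Cd79a, and for Utf1 they were Pou4f1, Ano9 and Hoxb13. The genes picked for Utf1 were also higher in pre-iPSC replicate 1 than in replicate 2, which follows from how they were picked. Their levels there were low, at 0.544 and 0.149 FPKM for Pou4f1, 2.49 and 0.429 FPKM for Ano9 and 1.21 and 0.421 FPKM for Hoxb13. Among themselves, Dppa4 and Dppa2 had r = 0.999, and Utf1 had r = 0.903 with Dppa4, 0.918 with Dppa2 and 0.921 with Dppa5a. As many as 121 genes had r above 0.99 with Dppa4 and 118 with Dppa2, compared with 21 for Dppa5a and 13 for Utf1.

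The genes that Dppa2 and Dppa4 are known to act on in the 2-cell-like state were nearly absent before the iPSC stage. Of 24 listed genes, 15 were in the tables, with summed levels of at most 0.157 FPKM in each MEF and pre-iPSC library and of 79.3 and 29.9 FPKM in iPSCs. Only 7 of the 15 passed the filter, and they passed through their iPSC libraries, so that their 7 calls in iPSCs against pre-iPSCs (3.91% of all tested genes were called higher) were largely set by the filter and are given as a description. The other 8 were at most 0.805 FPKM in any library. Zscan4f, of a cluster of zinc finger genes marking that state, was listed at 0 in MEFs and pre-iPSCs and was at 32.7 and 11.5 FPKM in iPSCs. Zscan4c was at 18.6 and 5.99 FPKM in iPSCs, and Dux itself, too low to be tested, was at 0.766 and 0.192 FPKM. In iPSC replicate 1 the Zscan4 genes were thus higher than in replicate 2, as Dppa2 and Dppa4 were. Dppa3, another gene tied to Dppa2 or Dppa4, was lower (11.3 against 41.2 FPKM). Whether these levels go together was not tested and could not be with 2 libraries. The Zscan4 genes also belong to families of near-identical copies among which unique reads may be split.

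Of 5 other genes tied to Dppa2 or Dppa4, 3 passed the filter, again through their iPSC libraries, so that their 3 calls in iPSCs against pre-iPSCs are a description (3.91% of all tested genes were called higher). Syce1, a synaptonemal complex gene, was at 0 in both pre-iPSC libraries and at 11.8 and 6.46 FPKM in iPSCs. Mael, which acts in transposon silencing in the germ line, was at 0 in pre-iPSCs and at 17.0 and 15.6 FPKM in iPSCs. Dppa3, a maternal factor, was at 0 in MEFs and pre-iPSCs and at 11.3 and 41.2 FPKM in iPSCs. Dppa1 was listed at 0 in all 6 libraries, and Nkx2-5 was at most 0.308 FPKM.

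The genes that share with Utf1 a control by Oct4 and Sox2 differed in their levels in pre-iPSCs. Of 6 such genes, 4 were called higher in pre-iPSCs than in MEFs (7.39% of all tested genes) and 3 in iPSCs than in pre-iPSCs (3.91%), with Fgf4 in both. Fgf4, a growth factor gene, was at 0 in MEFs, at 23.1 and 13.9 FPKM in pre-iPSCs and at 54.8 and 56.3 FPKM in iPSCs, and Fbxo15 was at 54.7 and 70.3 FPKM in pre-iPSCs and 72.5 and 82.1 FPKM in iPSCs. Nanog, at 0.519 and 0 FPKM in pre-iPSCs, and Lefty1, at 0.428 and 0.238 FPKM, were at 49.5 and 73.6 FPKM and at 114 and 187 FPKM in iPSCs, and since both passed the filter only through these libraries, their calls in the second step are a description. Pou5f1 (Oct4) was at 378 and 3184 FPKM and Sox2 at 272 and 171 FPKM in pre-iPSCs, levels in which transcripts of the retroviral factors and of the cell's own genes cannot be told apart. Pou5f1 was thus lower, and Sox2 higher, in the pre-iPSC library in which Utf1 was higher. With 2 libraries, a relation of either to Utf1 was not tested.

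Relatives of Dppa5a by the KH domain, and their partners in the maternal complex of the oocyte, were mostly silent. Of 9 listed genes, 8 were in the tables and 3 were tested, and 2 of these passed the filter only through their iPSC libraries, so that their 2 calls in iPSCs against pre-iPSCs are a description (3.91% of all tested genes were called higher). Ooep, the neighbour of Dppa5a at a distance of 8703 bp, was at 0.223 and 0.199 FPKM in pre-iPSCs and at 15.6 and 20.4 FPKM in iPSCs. The other was 2410004A20Rik, at 0 before the iPSC stage and at 2.18 and 2.36 FPKM in iPSCs. Khdc1a, Khdc1b and Khdc1c were listed at 0 throughout.

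Of the other neighbours, 2 could be tested. Morc1, a germ line gene 111723 bp beyond Dppa2, was at 0.0327 and 0 FPKM in MEFs, at 0.607 and 16.1 FPKM in pre-iPSCs and at 11.3 and 9.98 FPKM in iPSCs. It was therefore on in 1 pre-iPSC library in which Dppa2 and Dppa4 were at 0.154 and 0.0568 FPKM, and its difference between MEFs and pre-iPSCs did not pass the test (2.37 ± 0.83, adjusted p = 0.0981), whereas it was called higher in iPSCs than in MEFs (3.52 ± 0.83, adjusted p = 0.0208). Pvrl3, the nearest gene of the tables on the far side of Dppa4 but 1786767 bp away, was called lower in iPSCs than in MEFs (-1.64 ± 0.49, limma adjusted p = 0.0453). Gsta2, Kndc1 and 6430531B16Rik were too low to be tested.

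**Figure D3:**
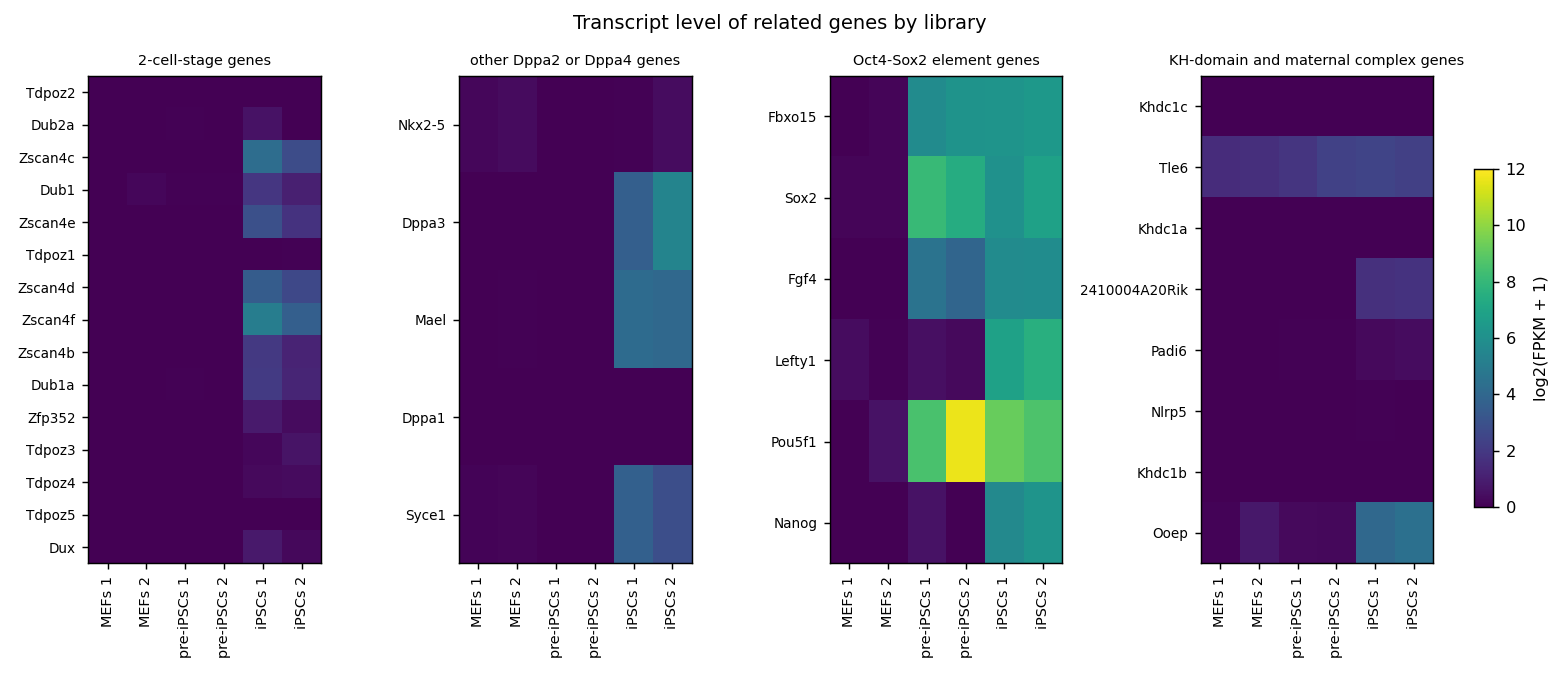
Transcript level as log2(FPKM + 1), shown by colour from 0 to 12, of the genes in 4 lists (rows) in the 6 RNA-seq libraries (columns). The 15 two-cell-stage genes downstream of Dppa2 and Dppa4 are dark in MEFs and pre-iPSCs. In iPSCs, 7 of them reach 1 FPKM and are lighter, and the others stay at or near 0. By contrast, 4 of the 6 genes with an Oct4-Sox2 element are light in pre-iPSCs as well.

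Histone marks were measured as reads of called nucleosomes whose centre (dyad) lay within 1000 bp of the TSS, and RPKM scales them to window length and to the reads in all calls of the library. Between 12007350 and 15222040 reads were in calls in the H3K4me3, H3K27me3 and H3K9me3 libraries, so that 1 promoter held from 0 to 36 reads of a mark and counting error was large. The counts were tested with edgeR over all genes that passed its filter on low counts. MEFs were digested with MNase under other conditions than pre-iPSCs and iPSCs. In comparisons with MEFs, cell type and digestion therefore cannot be told apart.

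H3K4me3 within 1000 bp of the TSS was called higher in iPSCs than in MEFs at Dppa4 and Dppa2 by edgeR with all 6 libraries. At Dppa4 there were 8 and 15 reads in MEFs, followed by 20 and 18 in pre-iPSCs, then 35 and 15 in iPSCs. At Dppa2 there were 13 and 10 reads in MEFs, followed by 19 and 12 in pre-iPSCs, then 27 and 20 in iPSCs. The iPSC and MEF libraries did not overlap at Dppa2, while the second iPSC library of Dppa4 was at the count of the second MEF library. The log2 change from MEFs to iPSCs was 1.40 ± 0.41 at Dppa4 (edgeR adjusted p = 0.0174) and 1.33 ± 0.40 at Dppa2 (adjusted p = 0.0192), where 14% of 17643 genes were called and 9.95% were higher. These calls rested on single libraries and on settings, and were lost in 4 of 13 alternatives at Dppa4 and in 7 of 13 at Dppa2. Without iPSC replicate 1 the changes were 0.78 and 1.20 (adjusted p of 0.427 and 0.153), without MEF replicate 1 they were 0.91 and 1.40 (adjusted p of 0.247 and 0.0836), and Dppa2 was also not called without MEF replicate 2 (1.26, adjusted p = 0.0579). DESeq2, which called 120 genes in place of 2468, called neither, and neither was called within 500 bp of the TSS. Dppa2 was also not called with calls of at least 2 reads or with the study's unique reads as depth. Neither of the single steps was called at any of the 4 genes (3.95% of genes called from MEFs to pre-iPSCs and 0.051% from pre-iPSCs to iPSCs), so a gain of the mark in either step was not shown. Over the whole gene, Dppa2 held 41 and 49 reads in MEFs, followed by 50 and 43 in pre-iPSCs, then 75 and 76 in iPSCs, and it was called higher in iPSCs than in MEFs (0.67 ± 0.22, adjusted p = 0.0303, 31% of 17953 genes called and 16.2% higher), while Dppa4 was not (0.65 ± 0.29, adjusted p = 0.0950). This call at Dppa2 was lost in 5 of 12 alternatives, which were DESeq2 (adjusted p = 0.149), the gene without its first 1000 bp (0.47, adjusted p = 0.157), and leaving out MEF replicate 1 (0.54, adjusted p = 0.161) or either iPSC replicate (0.71 and 0.63, adjusted p of 0.0894 and 0.115).

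H3K4me3 reads were found at Utf1 in all 6 libraries, also in MEFs, where its transcript was listed at 0. There were 28 and 21 reads within 1000 bp of its TSS in MEFs, followed by 31 and 26 in pre-iPSCs, then 36 and 22 in iPSCs, and the cell types overlapped. The change from MEFs to iPSCs was 0.54 ± 0.31 (adjusted p = 0.236) and that from pre-iPSCs to iPSCs was 0.00 ± 0.31 (adjusted p = 1.000). Among all genes, this window of Utf1 ranked near the middle, above 42.0% and 38.9% of the genes in MEFs, above 55.1% and 50.7% in pre-iPSCs and above 65.9% and 39.7% in iPSCs. Over the short gene itself, H3K4me3 per kb exceeded that of 90.8% and 92.0% of the genes in MEFs, then 98.9% and 92.8% in pre-iPSCs, and finally 99.2% and 95.2% in iPSCs. This window of 1257 bp lies close to the TSS, whereas those of longer genes reach far from it. In MEF replicate 1 the median over all genes was 0.505 RPKM over the gene and 1.50 RPKM within 1000 bp of the TSS. The higher ranks over the gene thus do not show an unusually high level at Utf1.

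H3K27me3 was lost at Utf1. Within 1000 bp of its TSS there were 25 and 30 reads in MEFs, followed by 21 and 14 in pre-iPSCs, then 3 and 4 in iPSCs, so that no libraries of different cell types overlapped. In MEFs this was more per library than at 92.4% and 92.2% of the genes, and in iPSCs it was more than at only 7.36% and 19.8%. The log2 change was -0.62 ± 0.34 from MEFs to pre-iPSCs (adjusted p = 0.285, with 8.3% of 10187 genes called and 3.27% lower), -2.33 ± 0.52 from pre-iPSCs to iPSCs (adjusted p = 0.0139) and -2.95 ± 0.48 from MEFs to iPSCs (adjusted p = 1.71e-05). The background was 0.825% of 10187 genes called from pre-iPSCs to iPSCs, with 0.137% lower, and 11.4% from MEFs to iPSCs, with 4.15% lower. The call from MEFs to iPSCs held in all 12 alternatives that gave a value, whereas that from pre-iPSCs to iPSCs was lost with DESeq2 and without pre-iPSC replicate 1 or either iPSC replicate. Over its 12 alternatives the change from pre-iPSCs to iPSCs ranged from -2.91 to -1.62. Over the gene, from 12 and 24 reads in MEFs to 4 and 5 in iPSCs, the change was -2.18 ± 0.54 (adjusted p = 0.00272, 28.4% of 17622 genes called and 14.4% lower), and it was not called without MEF replicate 2 (-1.77, adjusted p = 0.0817) or with calls of at least 2 reads (-2.35, adjusted p = 0.0606), while DESeq2 gave no adjusted p. The change over the gene from MEFs to pre-iPSCs was -1.28 ± 0.48 (adjusted p = 0.0475, 23.1% of genes called and 12.5% lower), a call that was lost in 8 of 10 alternatives.

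The other 3 promoters had little H3K27me3 in any cell type and were below the filter within 1000 bp. Dppa4 held 5 and 8 reads in MEFs, followed by 10 and 8 in pre-iPSCs, then 7 and 0 in iPSCs. Dppa2 held 8 and 10, 10 and 8, and 4 and 2 reads, and Dppa5a held 6 and 14, 5 and 6, and 5 and 2 reads in the same order. At Dppa2 and Dppa5a the iPSC libraries were at or below the lowest of the others. Over the longer gene of Dppa2, with 35 and 55 reads in MEFs, followed by 39 and 42 in pre-iPSCs, then 32 and 20 in iPSCs, H3K27me3 was called lower in iPSCs than in MEFs (-1.02 ± 0.32, adjusted p = 0.0162, 28.4% of 17622 genes called and 14.4% lower), and the change at Dppa4 of -0.67 ± 0.33 was not called (adjusted p = 0.125). The call at Dppa2 was lost in 5 of 12 alternatives. These included DESeq2 (adjusted p = 0.0683) and edgeR with the study's unique reads as depth (-0.73, adjusted p = 0.124). The latter also left out TMM, a scaling between libraries. The others were leaving out MEF replicate 1 (-1.12), MEF replicate 2 (-0.82) or iPSC replicate 2 (-0.81).

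**Figure D4:**
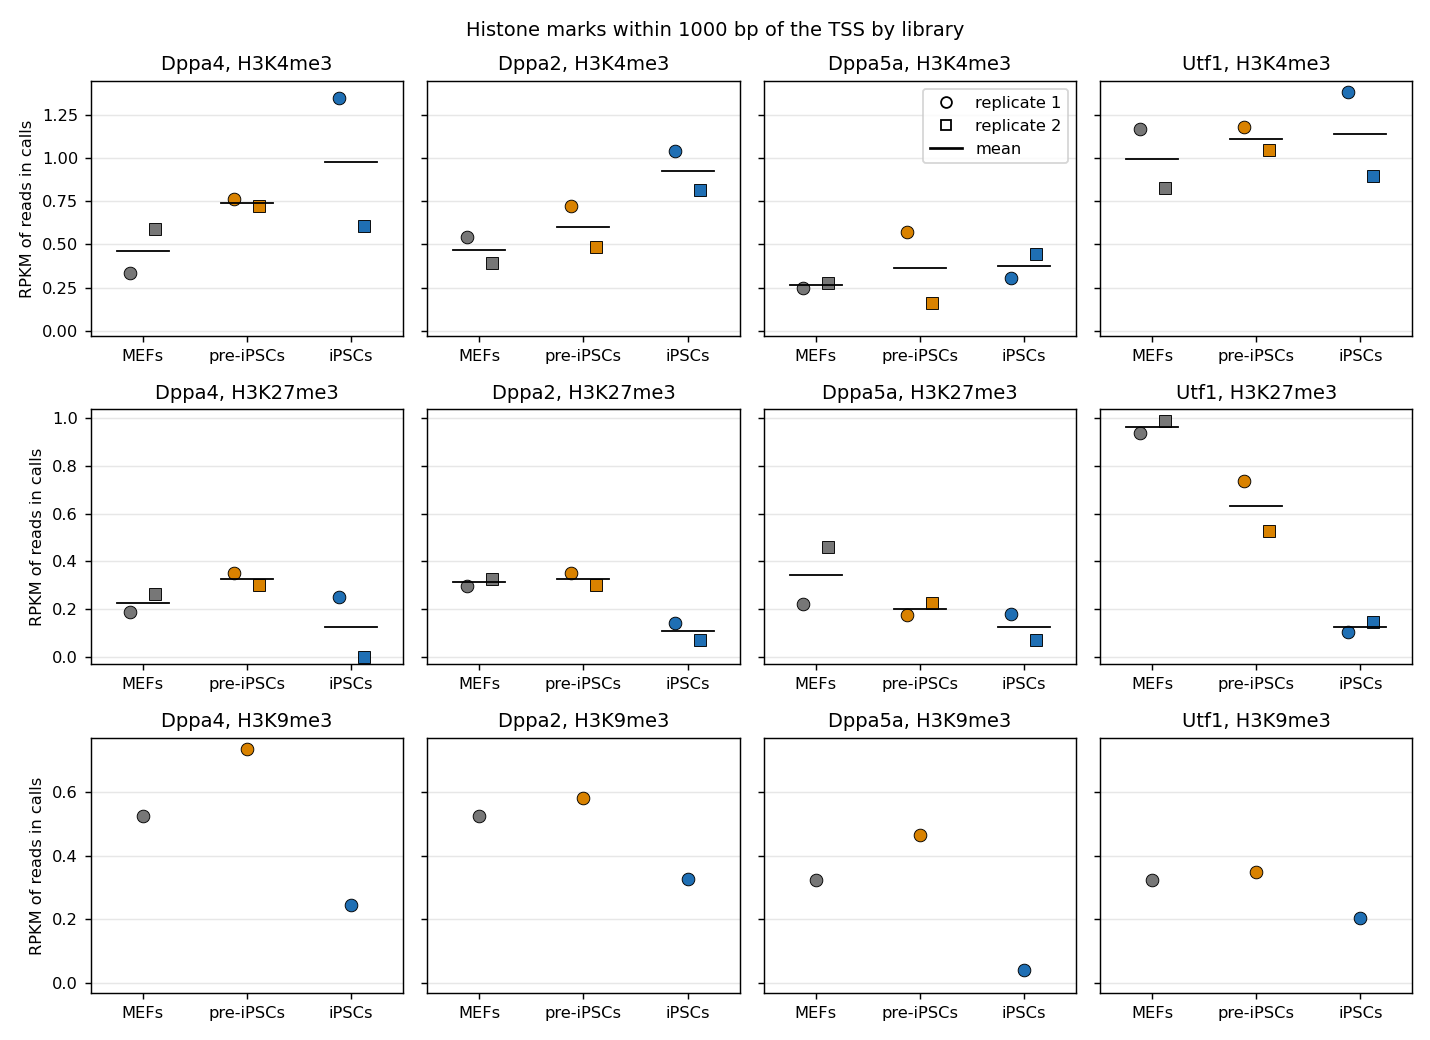
RPKM of H3K4me3, H3K27me3 and H3K9me3 (rows) within 1000 bp of the TSS of the 4 genes (columns), each point 1 library and each bar the mean of 2, with H3K9me3 measured in 1 library per cell type. The 2 iPSC values of H3K27me3 at Utf1, 0.107 and 0.148, lie far below the MEF values of 0.935 and 0.985, while H3K4me3 at Utf1 overlaps between the cell types.

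The wider surroundings of the TSS, out to 3000 bp on either side, were added after the data had been seen because they hold more reads. This window was fitted only once, by edgeR with TMM and all 6 libraries. Its calls were not tried with a library left out, with DESeq2 or without TMM. The part of the TMM scaling in the changes below was not tested. In this window H3K4me3 was called higher in iPSCs than in MEFs at all 4 genes, by 1.00 ± 0.30 at Dppa4, 1.17 ± 0.29 at Dppa2, 1.07 ± 0.33 at Dppa5a and 0.78 ± 0.21 at Utf1 (edgeR adjusted p from 0.00234 to 0.0140, 25.7% of 19427 genes called and 15.9% higher). From MEFs to pre-iPSCs it was called at Utf1 (53 and 55 against 83 and 72 reads) and at Dppa5a (17 and 22 against 40 and 35 reads), where 11.4% of the genes were called and 7.31% were higher. H3K27me3 was called lower in iPSCs than in MEFs at Utf1 (84 and 92 against 21 and 26 reads), Dppa5a (33 and 47 against 10 and 12 reads) and Dppa2 (25 and 36 against 17 and 9 reads), with 18.2% of 19414 genes called and 8.06% lower, and at Dppa4 the change was -1.07 ± 0.44 (adjusted p = 0.0847). From MEFs to pre-iPSCs it was called lower at Dppa5a alone (20 and 22 reads in pre-iPSCs, -0.96 ± 0.29, adjusted p = 0.0297, 11.3% of genes called and 5.4% lower), and from pre-iPSCs to iPSCs at Utf1 alone (-1.62 ± 0.26, adjusted p = 0.000745, 1.21% of genes called and 0.211% lower). At Utf1 this window takes in the end of Kndc1, 2315 bp upstream, and sequence past the end of Utf1, so its reads are not those of Utf1 alone.

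**Figure D5:**
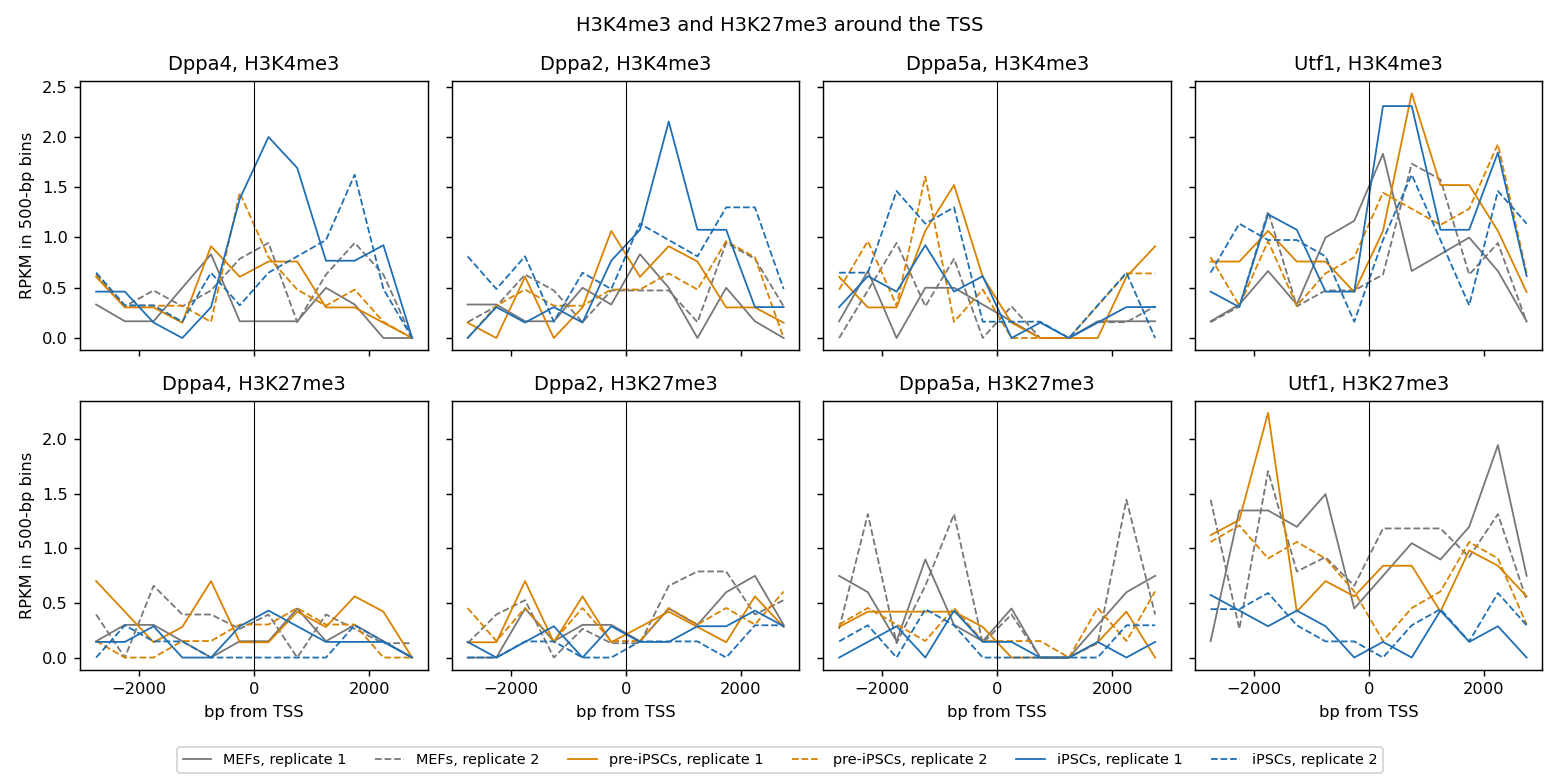
RPKM of H3K4me3 (top) and H3K27me3 (bottom) in 500-bp bins from 3000 bp upstream to 3000 bp downstream of the TSS, a line for each library and a vertical line at the TSS. H3K27me3 at Utf1 is low across the window in both iPSC libraries, and the H3K4me3 of Dppa5a lies mostly upstream of the TSS, with 0 to 2 reads per bin in the first 1500 bp downstream of it. H3 is not drawn here, and over the gene of Dppa5a it also came to few reads, from 1 to 12 per library.

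In iPSCs, Dppa5a had the highest transcript level of the 4 genes and few H3K4me3 reads at the TSS. Within 1000 bp of its TSS there were 6 and 7 reads in MEFs, followed by 15 and 4 in pre-iPSCs, then 8 and 11 in iPSCs, and the change from MEFs to iPSCs was 0.84 ± 0.56 (adjusted p = 0.314). In iPSCs, 119 and 95 genes had an FPKM within 2-fold of that of Dppa5a in the same replicate, with medians of 42 and 35 H3K4me3 reads, and Dppa5a had the fewest of them in both. Of the 32-base words, 57.2% within 1000 bp of the TSS and 19.8% in the gene were unique, and divided by the unique share of the window its iPSC reads were 14.0 and 19.2, against 39.0 and 16.7 for Dppa4. The reads of the genes of like FPKM were not scaled in this way, and the part of unique mapping in the low count was not tested. At Utf1, with 92.1% of the window unique, the iPSC reads of 36 and 22 compared with medians of 41 and 33 for 165 and 359 genes of like FPKM, and at Dppa2 the 27 and 20 reads compared with medians of 39 and 32. At Dppa4 the 35 reads of replicate 1 compared with a median of 39 and the 15 of replicate 2 with a median of 33, where 2.39% of 1509 genes had fewer.

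H3K9me3 was measured in 1 library per cell type, so no test was possible, and exact Poisson intervals cover counting error only. Within 1000 bp of the TSS, Dppa4 had 13 reads in MEFs (95% interval 6.92 to 22.2), 19 in pre-iPSCs (11.4 to 29.7) and 6 in iPSCs (2.20 to 13.1). Dppa2 had 13, 15 and 8 reads, Dppa5a 8, 12 and 1, and Utf1 8, 9 and 5. In this window the iPSC library thus had the lowest count and the pre-iPSC library the highest for all 4 genes, by differences that were within the overlap of the intervals at Dppa2 and Utf1 and, narrowly, at Dppa4. Only at Dppa5a, with an upper limit of 5.57 in iPSCs and a lower limit of 6.20 in pre-iPSCs, did the 2 intervals not overlap. In rank among all genes, Dppa4 moved from above 95.8% of the genes in pre-iPSCs to above 26.0% in iPSCs, and Dppa2 from above 88.1% to above 44.0%. Over the genes, Dppa4 had 56, 61 and 37 reads, Dppa2 42, 69 and 37, Utf1 6, 3 and 3, and Dppa5a 0, 1 and 0. Within 3000 bp of the TSS, MEFs had more reads than pre-iPSCs at Dppa2 (46, 41 and 23 reads) and at Utf1 (49, 48 and 24 reads), and the iPSC library was again the lowest at all 4 genes.

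By the study's threshold for promoter states, a mark counted as present above 1 RPKM within 500 bp of the TSS, here scaled to the reads in all calls. Over 4 genes in 6 pairs of libraries, H3K4me3 alone was found in 5 of 24 cases and neither mark in the other 19. The 5 were Utf1 in 1 library of each cell type, and Dppa4 in pre-iPSC replicate 2 and iPSC replicate 1. Scaled to the study's unique reads, H3K4me3 at Dppa4 and at Utf1 in pre-iPSC replicate 2 fell to 0.909 RPKM, so both counted as neither mark. Of all promoters in these libraries, between 42.8% and 57.7% had H3K4me3 alone and between 37.1% and 52.3% neither mark. Utf1 in MEFs had 1.50 and 0.551 RPKM of H3K4me3 and 0.598 and 0.919 RPKM of H3K27me3, so that the replicates fell on different sides of the threshold for H3K4me3.

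No change of histone H3 was called at these genes with all 6 libraries. Pre-iPSC replicate 1 stood apart from the other H3 libraries, with 108211816 reads in 8025059 calls where the others had at least 9557889 calls, and at Utf1 it held 316 reads within 1000 bp of the TSS against 36 in replicate 2. The other libraries held 26 and 52 reads at Utf1 in MEFs and 101 and 30 in iPSCs. In the median H3 RPKM of all genes within 1000 bp of the TSS, iPSC replicate 1 differed in the same direction. This median was 0.660 in pre-iPSC replicate 1, 0.542 in iPSC replicate 1 and 0.274 to 0.319 in the remaining libraries. At Dppa4 there were 57 and 86 reads in MEFs, followed by 109 and 78 in pre-iPSCs, then 64 and 47 in iPSCs, and at Dppa5a 50 and 43, 173 and 25, and 32 and 25. No gene was called among the 19576 tested in any of the 3 comparisons (edgeR and DESeq2 both 0, that is 0% of genes, with 1.9%, 0.557% and 1.52% at an unadjusted p below 0.05). From MEFs to iPSCs, pre-iPSC replicate 1 enters only the estimate of the spread, while iPSC replicate 1 enters the comparison itself. The changes were -0.93 ± 0.59 at Dppa4, -0.95 ± 0.54 at Dppa2, -1.30 ± 0.47 at Dppa5a and -0.03 ± 0.53 at Utf1, with the lowest edgeR adjusted p at 0.935. Without pre-iPSC replicate 1 they were -0.95, -0.99, -1.33 and -0.02. From pre-iPSCs to iPSCs, H3 per kb was lower in the iPSC library of the same number at all 4 genes, from 0.503 to 0.340 RPKM and 0.579 to 0.340 RPKM at Dppa4 but only from 0.185 to 0.181 RPKM in replicate 2 of Dppa5a. The replicate differences of these 2 cell types were correlated over all genes (r = 0.784), and with the replicate number as a block none of the 4 genes was called either. Without pre-iPSC replicate 2, which leaves the library that stood apart as the only pre-iPSC library, 4905 genes were called from MEFs to pre-iPSCs and 2058 from pre-iPSCs to iPSCs, with 1 of the 4 genes in each.

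Nucleosome calls at single promoters were sparse. The nearest H3 dyads on either side of the TSS were a median of 237 bp apart over the 4 genes and 6 libraries. Many of these calls held few reads, and with calls of at least 5 reads the median was much larger, as given below. At Dppa2, no call had its dyad between -150 and 50 bp of the TSS in any of the 6 libraries. This 0 rests on the edge of the window, since the nearest upstream dyads lay at -151 bp in MEF replicate 1 (9 reads) and pre-iPSC replicate 1 (75 reads) and at -152 bp in pre-iPSC replicate 2 (7 reads), and nucleosome-length calls centred there reach into it. Counted by dyad, Dppa4 had 0 to 8 reads between -150 and 50 bp, and Dppa5a 1 to 9 outside pre-iPSC replicate 1, in which it had 64. At Utf1, this stretch held 0 reads in both MEF libraries and in pre-iPSC replicate 2, 4 in each iPSC library and 85 in pre-iPSC replicate 1.

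At the downstream element of Utf1, within 500 bp of the match, H3 came to 40 and 53 reads in MEFs, followed by 118 and 35 in pre-iPSCs, then 27 and 11 in iPSCs. Among the H3 libraries, a nucleosome with its dyad within 73 bp of the match was called in both of MEFs (15 and 13 reads) and in pre-iPSC replicate 2 (13 reads). The mark libraries held calls of 1 to 6 reads at the same place in all 3 cell types, such as H3K27me3 in pre-iPSC replicate 1 (5 reads) and H3K4me3 in iPSC replicate 1 (1 read), where the H3 library had none. H3K27me3 there was 21 and 19 reads in MEFs, followed by 11 and 14 in pre-iPSCs, then 3 and 5 in iPSCs, without overlap between the cell types, and H3K4me3 was 8 and 9, 15 and 20, and 19 and 11 reads. These counts of 1 region were not tested across the genome.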

How the data were processed

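RNA-seq and ChIP-seq libraries of MEFs, pre-iPSCs and iPSCs were grouped by their labels; libraries titled as repeats are replicate 2. For RNA-seq the authors aligned reads with TopHat2 2.0.4 and deposited FPKM per RefSeq gene from Cufflinks 2.0.2 (Cuffdiff), replicates 1 and 2 in separate tables. For ChIP-seq the authors mapped reads to mm9 with Bowtie 1.0.1, kept unique reads, called nucleosomes with GeneTrack and deposited the read count of each call and its fuzziness. MEFs were digested with another amount of MNase, for another time and from another number of cells than pre-iPSCs and iPSCs. Reads outside the calls are not analysed here.

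The 4 genes and the lists were chosen with earlier results of these data known, and the study lists the 4 genes among its pluripotency markers and differentially expressed genes of these libraries. log2(FPKM + 1) was fitted with limma 3.58.1 (trend, table as a term) over genes averaging 0.5 FPKM or more. Reads of calls whose dyad lay in a window were summed per gene and went into edgeR 4.0.16 (quasi-likelihood test after filterByExpr and TMM), and into DESeq2 1.42.0 as an alternative. The edgeR alternative with the study's unique reads as depth left out TMM as well. p-values were adjusted by Benjamini-Hochberg over all genes tested, and edgeR calls were made at an adjusted p below 0.05. The scripts were tested on simulated data. Named genes were the 4 members, the 3 most correlated genes of each, the nearest gene on either side, and at most 6 of each list written for this work. RPKM used the reads in all calls: 67362868 to 108211816 for H3 and 12007350 to 15222040 for the marks; FPKM tables give no depth. The promoter sequences of Dppa2 and Utf1 and the element were read from the mm9 genome, and those of Dppa4 and Dppa5a are not reported here. Protein sequences were not used here.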

Additional observations from a re-analysis of the deposited data

How the results depend on the processing

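Depth limits the histone results, since a promoter held at most 36 reads of a mark, and with 2 libraries a group each left-out library leaves 1 that is assumed to vary like the others. The counts below are of the 4 genes called. All 4 were called in expression from MEFs to iPSCs in all 11 alternatives. From MEFs to pre-iPSCs 2 were called, and 1, Dppa5a, with no filter or no replicate block, with 1 to 2 on leaving out a library. From pre-iPSCs to iPSCs the range on leaving out a library was 3 to 4, and for the difference between the steps 3 to 4. For Utf1 the difference between the steps reversed to -0.25 with a pseudocount of 0.1 and ranged from -0.10 to 4.95 on leaving out a library. The uncalled Dppa4 difference from MEFs to pre-iPSCs reversed to -0.016 after quantile normalization and to -0.0069 without MEF replicate 1, and ranged from -0.067 to 0.15 on leaving out a library.

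For H3, 0 genes of the 4 were called in any comparison, and on leaving out a library the range was 0 to 1 within 1000 bp of the TSS from MEFs to pre-iPSCs and from pre-iPSCs to iPSCs and 0 to 2 over the gene from MEFs to pre-iPSCs, the calls arising without pre-iPSC replicate 2. For H3K4me3 within 1000 bp from MEFs to iPSCs, 2 were called, against 0 with DESeq2 or a 500-bp window, 1 with calls of at least 2 reads or the study's unique reads as depth, 4 within 3000 bp and 0 to 2 on leaving out a library. From MEFs to pre-iPSCs 0 became 2 within 3000 bp. Over the gene 1 became 0 with DESeq2 or without the first 1000 bp, with a range of 0 to 2. For H3K27me3 within 1000 bp, 1 called from pre-iPSCs to iPSCs became 0 with DESeq2 or a 500-bp window, where no member was tested, with a range of 0 to 1. From MEFs to iPSCs 1 became 0 with 500 bp and 3 within 3000 bp, and from MEFs to pre-iPSCs 0 became 1 within 3000 bp. Over the gene, 1 from MEFs to pre-iPSCs became 0 with DESeq2 (adjusted p not given for Utf1), no filter, calls of at least 2 reads, unique reads, the replicate block or without the first 1000 bp, with a range of 0 to 1, and 2 from MEFs to iPSCs became 0 with DESeq2 (again with none given for Utf1) and 1 with calls of at least 2 reads, unique reads or without the first 1000 bp, with a range of 0 to 2. The 3000-bp window was chosen after seeing the data and was fitted only once, so its own calls were not tried under other settings. The 5 promoter states with H3K4me3 became 0 at 2 RPKM and 3 with unique reads, and the median dyad gap of 237 bp became 665.5 bp with calls of at least 5 reads.

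Over all genes, DESeq2 called 120 in place of 2468 for H3K4me3 within 1000 bp from MEFs to iPSCs and 31 in place of 697 from MEFs to pre-iPSCs, 18 in place of 1165, 0 in place of 84 and 45 in place of 846 for H3K27me3 (MEFs to iPSCs, pre-iPSCs to iPSCs, MEFs to pre-iPSCs), and 3246 in place of 5561 for H3K4me3 over the gene from MEFs to iPSCs. Without a filter, 1244 genes in place of 2032 were called in expression from MEFs to pre-iPSCs. The causes were not tested. The correlation of replicate differences between cell types was 0.35, -0.20 and 0.11 in RNA-seq and 0.78 in H3 between pre-iPSCs and iPSCs, but from -0.04 to 0.00 for H3 with MEFs and from -0.02 to 0.09 for the marks, so the numbers did not pair the libraries across all cell types. The replicate block was an alternative in the ChIP fits and changed none of the H3 calls.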
